A study of Mus musculus with 32 samples.

Results

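Cytochrome P450 enzymes of families 1 to 4 were followed through 8 groups of mouse liver. The members are the protein-coding genes whose symbol reads Cyp, a family digit from 1 to 4, a subfamily letter and a gene number, with or without a closing letter, on a GRCm38 annotation. Cyp1a2 and Cyp2e1 were left out by that rule. It gave 78 genes of the 52636 in the count table. The rule reads symbols and no measured value, but it was set with earlier results of these data known. Of these, 59 had enough counts to be tested, and the other 19 were at or near 0 throughout: 6 had no count in any library (Cyp2j7, Cyp2j11, Cyp2j12, Cyp2t4, Cyp2w1 and Cyp4a29), and 13 had between 1 and 106 counts over all 32 libraries together. The last 13 were Cyp2b19, Cyp2b23, Cyp2c65, Cyp2c66, Cyp2d12, Cyp2d34, Cyp2j13, Cyp3a57, Cyp4a12b, Cyp4a30b, Cyp4f37, Cyp4f40 and Cyp4x1.

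The series measured polyadenylated RNA from whole liver by bulk sequencing. Every mouse, controls included, ate a PTU/LID diet, which stops the thyroid from making its hormone. On that background 3 factors were crossed: thyroid hormone receptor beta (Thrb) wild type or knockout, carbon tetrachloride (CCl4) or its oil, and triiodothyronine (T3, the active thyroid hormone) or, in the labels, PBS. CCl4 was dosed at 0.4 µl/g, 2 injections a week over 4 weeks and 9 in total, T3 was dissolved in the water they drank at 1 µg/ml for the closing week, and livers were collected 24 h after the last injection. Each of the 8 groups held 4 animals with numbers of their own: wild type on oil with PBS, wild type on oil with T3, wild type on CCl4 with PBS, wild type on CCl4 with T3, and the same 4 in the knockout. The labels used here name no strain, age, sex or way the Thrb allele was built, and the knockout is not said to be limited to 1 cell type, so other organs of these mice may also have lacked the receptor.

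P450 enzymes are haem proteins of the endoplasmic reticulum that take electrons from P450 reductase and insert an oxygen atom into their substrates. In liver, families 1 to 3 mostly handle drugs, toxins, steroids and bile acids, while family 4 and parts of the Cyp2c and Cyp2j subfamilies oxidise fatty acids. Their genes answer to ligand-sensing nuclear receptors, among them CAR, PXR and PPARα, and in rodents many differ between the sexes under the control of growth hormone. CCl4 itself is made toxic by P450 enzymes, which turn it into a radical. T3 acts through receptors that bind DNA, and Thrb encodes the main one of hepatocytes.

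Several subfamilies sit in tandem clusters of near-identical genes, and their reads cannot always be assigned. Every member's exons were cut into stretches of 50 bases that were searched for in all other genes: 25 of 78 members shared more than 20% of them exactly, 5 more than 50%, 9 none, with a median of 8.85%. With stretches of 100 bases 7 members still shared more than 20%. Cyp3a41a and Cyp3a41b shared 98.6% and 93.5%, so the pair can hardly be told apart, and the Cyp2c genes Cyp2c40, Cyp2c69 and Cyp2c67 shared 60.3%, 54.3% and 52.8%. Cyp2a4 shared 38.8%, chiefly with Cyp2a5, and Cyp2b13 27.3%, whereas Cyp3a16 shared 10.7% and Cyp2c23 and Cyp2c70 none. The counting tool, its treatment of shared reads and its strand setting were not given in the sources used here, so values of the sharing members are uncertain, and sums over subfamilies are given beside them.

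Libraries held 16985162 to 26118055 counts. Thrb checks the labels: it stood at 50.2 to 66.4 CPM (counts scaled to library size by edgeR) in wild-type and 30.7 to 42.6 CPM in knockout livers on oil with PBS, and at 43.2 to 60.6 against 22.7 to 33.7 CPM on oil with T3. On CCl4 with PBS the genotypes overlapped, at 10.7 to 33.1 and 15.9 to 23.1 CPM, and on CCl4 with T3 they did not, at 32.8 to 44.4 and 15.9 to 24.4 CPM. The knockout passed the edgeR test for Thrb with T3 on oil (adjusted p = 0.0207) and on CCl4 (adjusted p = 0.000966), but not with PBS on oil (adjusted p = 0.167) or CCl4 (adjusted p = 0.6). Which exons the allele removes is not given, and counts over the whole gene include any reads outside them. In the libraries as a whole, 3 lay farthest from their group mean: wild-type CCl4 PBS animals 2 and 4 and knockout CCl4 PBS animal 3. Hepatocyte markers were high in every library, with a summed level of at least 48582 CPM. Together 4 Y-linked genes had 3 counts over all 32 libraries, and Xist, which female cells express, stood at 249 to 1410 CPM. That is the pattern of female liver, although the labels name no sex. Per the labels, 2 kits were used for library preparation, without saying which library had which, so kit and group cannot be told apart.

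Summed over all 78 genes, P450 transcripts came to 20976 ± 4331 CPM (mean ± SD, n = 4 here and for every group below) in wild-type livers on oil with PBS and 17135 ± 2038 CPM with T3. On CCl4 the sum was 10216 ± 4129.6 CPM with PBS, where animal 4 stood apart at 16372 CPM, and 19938 ± 2389 CPM with T3. In the knockout it was 21318 ± 1517 CPM on oil with PBS and 19826 ± 1406 CPM with T3, then 12905 ± 4767 CPM on CCl4 with PBS and 8518 ± 1111 CPM on CCl4 with T3. The lowest mean sum was that of knockout livers given both CCl4 and T3, at 7146 to 9676 CPM per animal. Those animals overlapped wild-type livers on CCl4 with PBS, at 7571 to 16372 CPM, where animal 4 set the upper end. They also overlapped knockout livers on CCl4 with PBS, at 5897 to 15942 CPM. Wild-type livers given both were near the oil level.

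Compared per kilobase of annotated exon, the most abundant member over all libraries was Cyp2a4, a steroid hydroxylase, at 784.8 CPM per kb. Orders on this scale depend on the annotated exon length of each gene. The leading gene changed with the treatment. Cyp4a14, a fatty acid hydroxylase regulated by PPARα, led in wild-type livers on oil with PBS at 989.8 ± 288 CPM per kb, followed by Cyp2c29 at 764 ± 311 CPM per kb. With T3 on oil Cyp2a4 led at 1504 ± 117 CPM per kb, before Cyp2c70 at 917 ± 140.5 and Cyp2f2 at 807 ± 205 CPM per kb. Neighbours in these orders overlapped in several cases, Cyp4a14 and Cyp2c29 among them. Cyp2a4 led in the remaining groups as well, from 532 ± 84.2 CPM per kb in the knockout with CCl4 and T3 to 1487 ± 336 in the wild type with both, except in knockout livers on oil with PBS, where Cyp2c37 led at 900.4 ± 114 CPM per kb. The member of highest level per kb in each other subfamily, over all libraries, was Cyp3a25 (282.9 CPM per kb), Cyp2d26 (532.9), Cyp2b9 (183.9), Cyp2j5 (147.8), Cyp2f2 (383.5), Cyp4a14 (607.5) and Cyp2c29 (473.6), and below 50 CPM per kb came Cyp4f15 (48.03), Cyp4v3 (38.3), Cyp2r1 (7.60), Cyp4b1 (7.22), Cyp2g1 (1.48), Cyp2u1 (0.931), Cyp1a1 (0.718), Cyp2s1 (0.218) and Cyp1b1 (0.189). In counts over all libraries Cyp3a11 exceeded Cyp3a25, at 864510 against 384939. The order per kb is the reverse because 5093 exon bases are annotated for Cyp3a11 and 2083 for Cyp3a25.

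**Figure D1:**
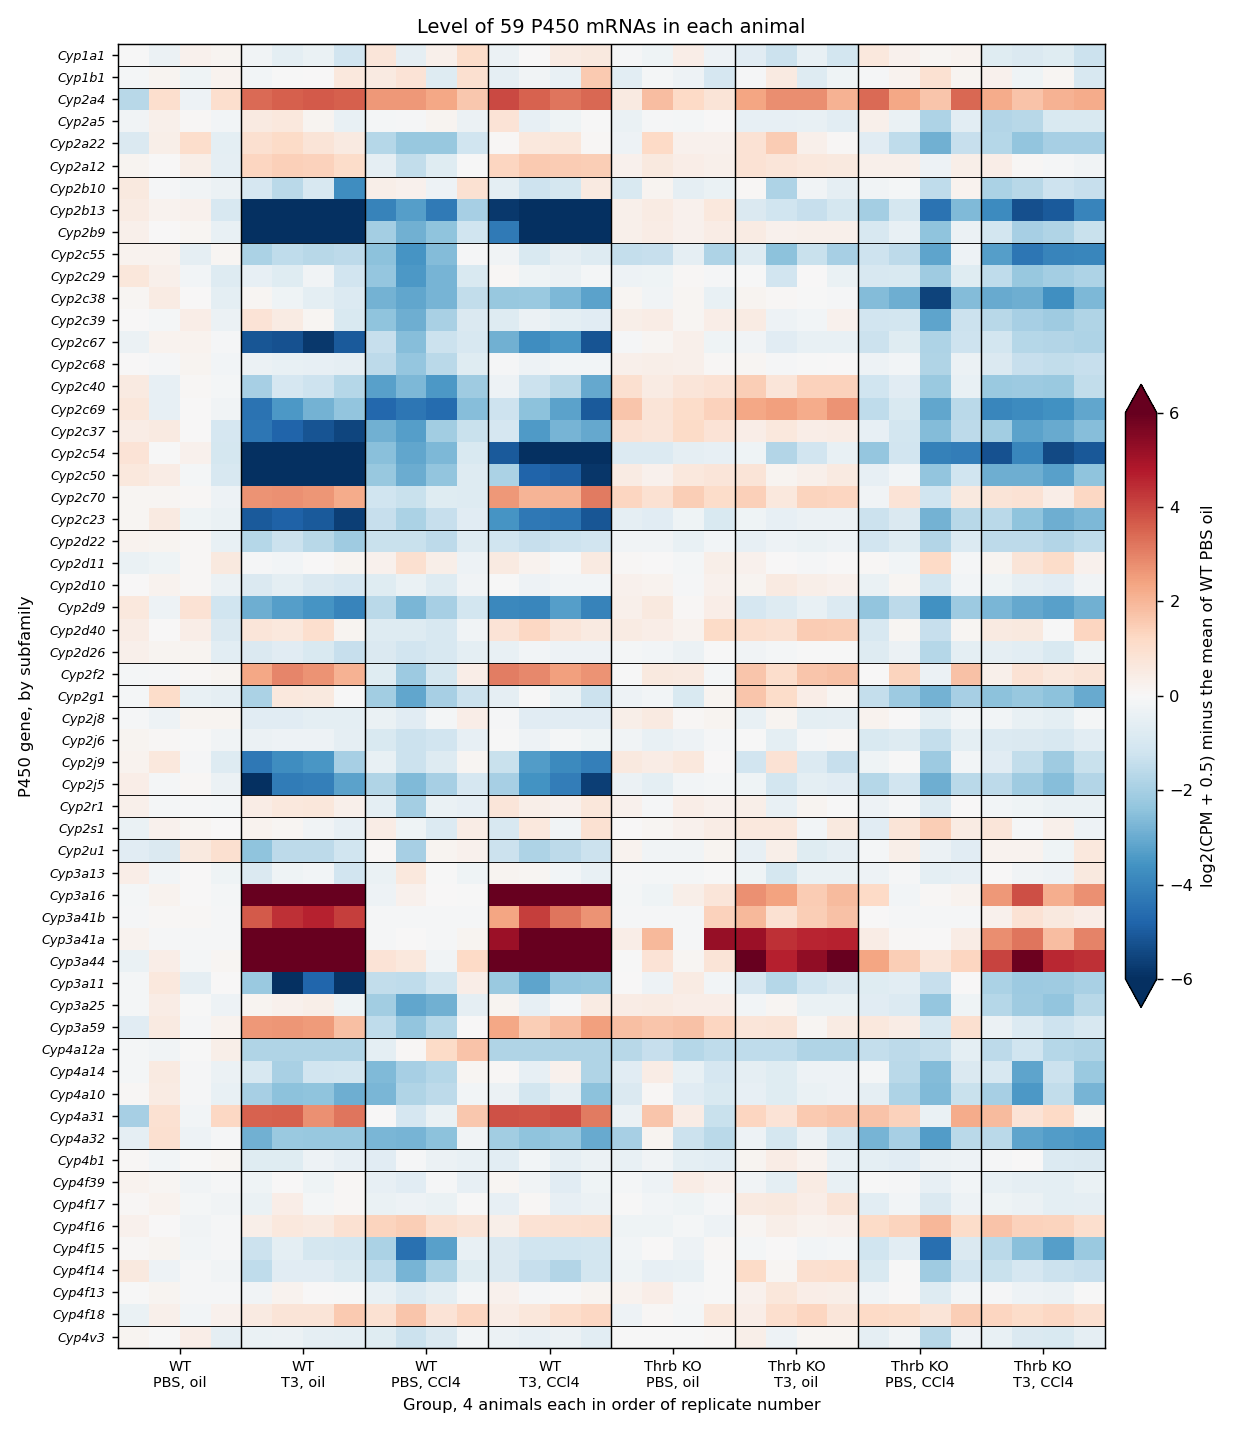
Level of the 59 tested P450 mRNAs (rows, by subfamily) in each of 32 livers (columns, by group), as log2(CPM + 0.5) minus the mean of wild-type livers on oil with PBS, with colours capped at 6 units either way. The wild-type T3 columns hold deep blue rows for Cyp2b9, Cyp2b13, Cyp2c50 and Cyp2c54 and deep red rows for Cyp3a16, Cyp3a41a and Cyp3a44.

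T3 on oil in the wild type asked which P450 mRNAs respond to the hormone in an uninjured, hypothyroid liver. Of 59 members tested, 12 rose and 25 fell at an edgeR adjusted p of at most 0.05, the rule for every call here. That is 62.7% of members, against 35.3% of all 15599 genes tested. Lower calls made up the larger share: 25 of 59 members, against 16.2% of all genes called lower, and 12 of 59 against 19% called higher. With libraries scaled by total counts alone the members split into 14 higher and 24 lower. The median log2 fold change was -0.56 over members and -0.02 over all genes, and 26 of the called members changed at least 4-fold. In none of the 37 did the 4 treated animals overlap the 4 controls. The calls were made on these same animals, and the share without overlap over all called genes is not given here.

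Cyp2b9 and Cyp2b13, steroid hydroxylases that in adult mice are typical of females, went from abundant to nearly absent. Cyp2b9 stood at 711, 598, 631 and 424 CPM in the 4 controls and at 3.30, 1.51, 0.138 and 0 CPM with T3 (log2 fold change -8.91 ± 0.99, SE, edgeR adjusted p = 4.61e-08). Cyp2b13 went from 512, 420.4, 439 and 185 CPM to 0.613, 0.654, 0 and 0.132 CPM (log2 fold change -10.13 ± 0.96, SE, edgeR adjusted p = 2.79e-09). Every T3 animal was far below every control, and for each gene 1 T3 animal had no read at all. Cyp2b10, the classical CAR target, fell less, from 110.0 ± 34.4 to 37.6 ± 22.03 CPM (log2 fold change -1.55 ± 0.46, SE, edgeR adjusted p = 0.01). Cyp2b10 made up 10.2% ± 1.96 of Cyp2b counts in controls and 96.3% ± 3.20 with T3, and the summed subfamily changed by -4.798 ± 0.50 (log2, SE, edgeR adjusted p = 1.7e-08).

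Cyp2b9 (chr7:26173411-26210661) and Cyp2b13 (chr7:26061497-26096197) lie next to each other on the + strand of GRCm38. The 250 bases before their RefSeq start sites (GRCm38.p6, + strand, chr7:26173159-26173408 and chr7:26061245-26061494) are shown because these 2 genes fell by the most among the Cyp2b members and because the windows are almost the same text. Capitals mark AGGTCA, the hexamer that nuclear receptors such as those for T3 recognise.
Cyp2b9: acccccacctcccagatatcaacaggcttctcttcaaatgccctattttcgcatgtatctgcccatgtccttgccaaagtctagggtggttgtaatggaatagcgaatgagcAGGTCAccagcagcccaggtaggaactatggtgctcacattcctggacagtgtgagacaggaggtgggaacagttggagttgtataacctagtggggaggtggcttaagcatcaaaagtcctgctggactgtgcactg
Cyp2b13: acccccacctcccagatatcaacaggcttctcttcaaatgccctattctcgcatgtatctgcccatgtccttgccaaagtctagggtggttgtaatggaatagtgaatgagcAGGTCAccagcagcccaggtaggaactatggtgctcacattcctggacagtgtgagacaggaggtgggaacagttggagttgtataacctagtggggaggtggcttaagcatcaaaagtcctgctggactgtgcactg
The windows are 99.2% identical and differ by the substitutions T48C and C104T, with the Cyp2b9 base given before the position, counted from 1 at the 5′ end of the window, and the Cyp2b13 base after it. AGGTCA begins 138 bases before the start in each. Against the Cyp2b10 window their identity is 70%.

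The Cyp2c subfamily, 15 members of which 13 were tested, was divided. Of those, 8 fell and 1 rose. Cyp2c54 stood at 461, 255, 312 and 127 CPM in controls and 0.566, 0.503, 0.0920 and 0 CPM with T3 (log2 fold change -9.97 ± 1.013, SE, edgeR adjusted p = 9.53e-09). Cyp2c50 went from 1048, 902, 625 and 339 CPM to 5.95, 5.78, 2.16 and 1.45 CPM (log2 fold change -7.57 ± 0.80, SE, edgeR adjusted p = 1.99e-08). Cyp2c37 went from 1212, 1279.9, 902 and 442 CPM to 44.03, 31.1, 23.7 and 19.1 CPM (log2 fold change -5.02 ± 0.54, SE, edgeR adjusted p = 2.57e-08). These 3 oxidise arachidonic and linoleic acid and are known to respond to CAR, and in each every T3 animal lay far below the lowest control. Cyp2c23, an arachidonic acid epoxygenase with no stretch shared with another gene, went from 422, 556, 324 and 299 CPM to 11.1, 12.98, 11.2 and 7.24 CPM (log2 fold change -5.23 ± 0.40, SE, edgeR adjusted p = 4.51e-11). Cyp2c67 went from 149.8, 221, 224 and 184 CPM to 5.002, 4.63, 2.94 and 5.36 CPM (log2 fold change -5.44 ± 0.39, SE, edgeR adjusted p = 1.22e-11), and Cyp2c69 from 108, 47.7, 66.6 and 56.3 CPM to 2.60, 5.68, 8.97 and 12.4 CPM (log2 fold change -3.23 ± 0.60, SE, edgeR adjusted p = 9.69e-05). The T3 animals lay below the controls for all 3, although reads of Cyp2c67 and Cyp2c69 can be exchanged with Cyp2c40.

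Cyp2c70, the enzyme that makes the muricholic acids of mouse bile, moved the other way. It stood at 326, 321, 306 and 241 CPM in controls and at 1954, 2018, 1886 and 1407 CPM with T3 (log2 fold change 2.60 ± 0.31, SE, edgeR adjusted p = 1.51e-07). Its share of all Cyp2c counts went from 5.36% ± 1.248 to 48.9% ± 3.40. Cyp2c29, the most abundant Cyp2c gene of control liver, held 38.8% ± 3.70 and 38.01% ± 4.77 of them and was not called (log2 fold change -0.71 ± 0.38, SE). The summed Cyp2c subfamily was not called either, at -0.66 ± 0.32 (log2, SE, edgeR adjusted p = 0.103), with 5907 ± 1928 CPM before and 3729 ± 644 CPM after.

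In the Cyp3a subfamily an almost silent set replaced the main gene. Cyp3a16, best known from fetal liver, stood at 0.112, 0.274, 0.168 and 0.105 CPM in controls and 437, 498, 470.0 and 408 CPM with T3 (log2 fold change 11.38 ± 0.61, SE, edgeR adjusted p = 3.89e-14). Cyp3a44, female-typical in adult mice, went from 0.225, 0.768, 0.379 and 0.523 CPM to 822, 1238, 1256 and 960.4 CPM (log2 fold change 11.13 ± 0.65, SE, edgeR adjusted p = 1.43e-13). Each T3 animal exceeded every control many times over. Cyp3a41a had 2 counts over the 4 control libraries and 8079 over the 4 T3 libraries (57.6, 97.1, 125 and 97.3 CPM), a ratio of 3724-fold, with a 95% counting interval of 1030.5 to 30752. Cyp3a41b had 2 counts against 810 (6.18, 10.5, 12.6 and 8.69 CPM), a ratio of 373-fold, with a 95% counting interval of 103 to 3088, and nearly all of its stretches are shared with Cyp3a41a. Such intervals cover counting error only.

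Cyp3a11, the main drug-metabolising Cyp3a enzyme of adult mouse liver and a PXR target, fell while these genes rose. It stood at 2186, 3693, 1665 and 2427 CPM in controls and 504, 35.8, 87.9 and 39.95 CPM with T3 (log2 fold change -3.90 ± 0.61, SE, edgeR adjusted p = 9.02e-06). The first T3 animal was well above the other 3 and still below every control. Cyp3a59 rose from 16.2, 39.0001, 24.96 and 30.6 CPM to 161, 167, 158 and 92.5 CPM (log2 fold change 2.38 ± 0.40, SE, edgeR adjusted p = 2.57e-05), with animal 4 apart from the other 3. Cyp3a25 and Cyp3a13 were not called, at 0.13 and -0.58 (log2).

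The total of the subfamily hid this exchange. Summed Cyp3a counts were 3496 ± 996 CPM in controls and 2902 ± 409.9 CPM with T3, a log2 difference of -0.27 ± 0.29 (SE, edgeR adjusted p = 0.495). Cyp3a11 supplied 70.4% ± 5.59 of them in controls and 5.71% ± 7.73 with T3. Cyp3a44 then supplied 36.98% ± 5.98, Cyp3a25 27.7% ± 1.05 and Cyp3a16 15.7% ± 1.37. On CCl4 the make-up shifted likewise, with Cyp3a11 at 73.5% ± 7.21 with PBS and 15.5% ± 4.84 with T3, where Cyp3a44 supplied 30.9% ± 8.25. In the knockout on oil Cyp3a11 supplied 64.9% ± 5.69 with PBS and 53.8% ± 7.72 with T3, where Cyp3a44 supplied 2.44% ± 0.908. In T3 animal 2 of that group Cyp3a11 held 42.8% and Cyp3a25 45.8%.

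**Figure D2:**
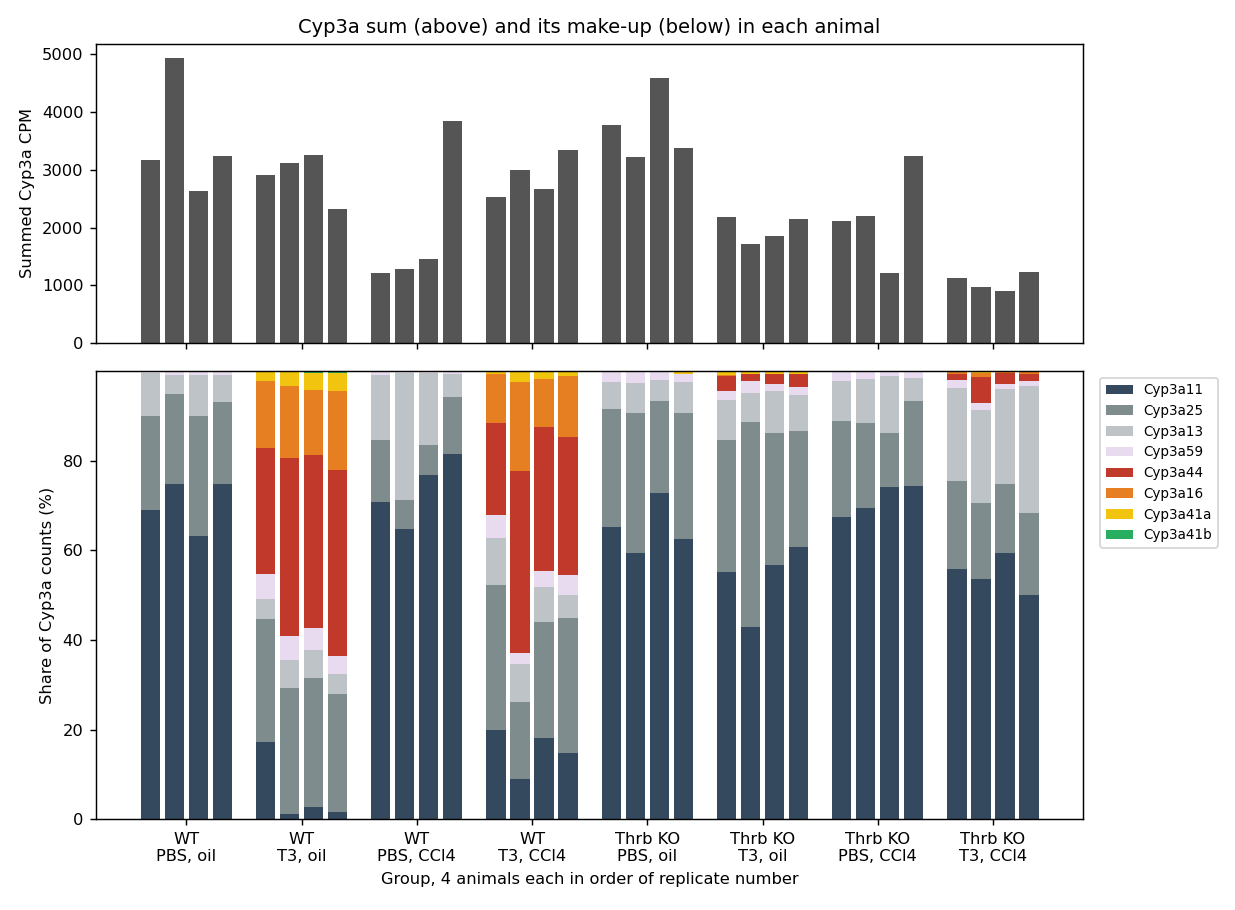
Summed Cyp3a CPM (upper panel) and the share of Cyp3a counts from each gene in percent (lower panel) in each of the 32 livers, 4 bars a group. Bars of similar height in wild-type livers on oil with and without T3 are made of Cyp3a11 without T3, 70.4% on average, and of Cyp3a44, Cyp3a25 and Cyp3a16 with it.

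The 250 bases before the RefSeq starts (GRCm38.p6, - strand) of the 3 rising genes and of Cyp3a11 are shown for comparison, because neighbours in 1 cluster moved in opposite directions. They are chr5:145469724-145469973 for Cyp3a16, chr5:145720137-145720386 for Cyp3a41a, chr5:145805875-145806124 for Cyp3a44 and chr5:145879855-145880104 for Cyp3a11. Capitals mark AGGTCA and TATAAA, the letters of a TATA box.
Cyp3a16: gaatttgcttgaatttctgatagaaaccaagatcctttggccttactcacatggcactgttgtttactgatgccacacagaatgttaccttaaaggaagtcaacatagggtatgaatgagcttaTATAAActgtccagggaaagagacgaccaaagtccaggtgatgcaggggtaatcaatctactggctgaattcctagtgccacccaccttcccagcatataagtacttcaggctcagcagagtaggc
Cyp3a41a: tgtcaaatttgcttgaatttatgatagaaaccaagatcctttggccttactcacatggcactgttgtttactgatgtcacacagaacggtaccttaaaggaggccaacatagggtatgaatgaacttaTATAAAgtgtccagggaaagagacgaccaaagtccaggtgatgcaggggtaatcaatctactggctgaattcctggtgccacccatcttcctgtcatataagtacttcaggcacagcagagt
Cyp3a44: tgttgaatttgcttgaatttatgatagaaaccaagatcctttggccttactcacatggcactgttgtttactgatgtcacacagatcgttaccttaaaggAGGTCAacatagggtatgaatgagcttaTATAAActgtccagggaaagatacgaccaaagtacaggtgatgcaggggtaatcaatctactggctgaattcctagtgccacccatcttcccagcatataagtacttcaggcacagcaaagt
Cyp3a11: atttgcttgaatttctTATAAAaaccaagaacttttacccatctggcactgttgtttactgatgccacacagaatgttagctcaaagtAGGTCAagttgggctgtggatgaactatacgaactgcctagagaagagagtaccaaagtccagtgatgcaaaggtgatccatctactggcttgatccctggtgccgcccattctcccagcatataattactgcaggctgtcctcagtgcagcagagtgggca
The windows of the 3 rising genes were 90.9% to 94.4% identical to each other, and that of Cyp3a11 was 76.2% identical to Cyp3a16 and 71.7% to Cyp3a44 and Cyp3a41a. Cyp3a41b differed from Cyp3a41a by the single substitution T222G (Cyp3a41a base first, position from the 5′ end). AGGTCA begins 150 bases before the start in Cyp3a44 and 162 bases before it in Cyp3a11, and is not in the other windows shown here. TATAAA begins 126 bases before the start in Cyp3a16 and 122 in Cyp3a41a and Cyp3a44.

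Of the 78 members 63 have a RefSeq window of this length. Read on both strands, AGGTCA was in 16 of the 63 (25.4%) and in 14% of all 32851 windows. It was in 4 of 11 windows of genes that rose with T3 and in 4 of 19 of genes that fell. A direct repeat of AGGTCA spaced by 4 bases of any kind, the arrangement that T3 receptors favour, which holds the first motif within it, was in no member window and in 0.0152% of all windows. TTCNNNGAA, read by STAT5, was in 4 member windows (6.35%) and in 7.02% of all, none of them of a rising gene and 1 of a falling gene. TATAAA was in 24 member windows (38.1%) and in 12.4% of all, with 7 of the 11 rising and 8 of the 19 falling. A match is a description of the letters only.

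Cyp2a4 and Cyp2f2 rose in the same chromosome 7 cluster that holds Cyp2b9 and Cyp2b13. Cyp2a4, a testosterone hydroxylase typical of female liver, stood at 68.1, 435, 179 and 435 CPM in controls and 2351, 2613, 2849 and 2642 CPM with T3 (log2 fold change 3.23 ± 0.43, SE, edgeR adjusted p = 1.01e-06). Cyp2f2, which activates naphthalene, went from 258, 266, 290.5 and 313 CPM to 1386, 2130.3, 1812 and 1213 CPM (log2 fold change 2.54 ± 0.40, SE, edgeR adjusted p = 1.15e-05). Cyp2a12 went from 534, 478, 601 and 321 CPM to 1155, 1268, 1228 and 1026 CPM (log2 fold change 1.27 ± 0.21, SE, edgeR adjusted p = 2.71e-05). The T3 animals were above all controls for the 3 genes, and Cyp2a4 varied most among controls. Cyp2a5, the coumarin hydroxylase and near copy of Cyp2a4, was not called (0.28 ± 0.31, log2, SE), and the summed Cyp2a subfamily rose by 1.31 ± 0.23 (log2, SE, edgeR adjusted p = 5.91e-05).

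Most Cyp2d and Cyp2j genes fell: 4 of 6 Cyp2d and 3 of 4 Cyp2j members tested passed in that direction. Cyp2d9, a testosterone hydroxylase typical of male liver, went from 213, 108, 246 and 58.7 CPM to 17.5, 13.1, 10.995 and 8.34 CPM (log2 fold change -3.65 ± 0.40, SE, edgeR adjusted p = 3.98e-08). Cyp2d22 went from 458, 447, 416 and 296 CPM to 120.2, 160.4, 125 and 89.9 CPM (log2 fold change -1.71 ± 0.19, SE, edgeR adjusted p = 3.75e-08). Cyp2j5, an epoxygenase, went from 1032, 722, 841 and 625 CPM to 10.4, 42.3, 45.2 and 85.6 CPM (log2 fold change -4.13 ± 0.58, SE, edgeR adjusted p = 1.87e-06). The groups did not overlap in any of the 3. Family 4 was split: Cyp4a31 rose (2.90), Cyp4a10 and Cyp4a32 fell (-2.45 and -2.60), and Cyp4a14 had -1.28 ± 0.53 (log2, SE) without passing. Cyp4a12a, a male-typical fatty acid hydroxylase, had 101 counts over the control libraries and 0 over the T3 libraries, at least 36.5-fold lower with 3 counts over the group as the limit. Of family 1, Cyp1a1 was not called and stood at 1.54 to 2.61 CPM in controls and 0.702 to 1.75 CPM with T3.

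Along the chromosomes some clusters held both rising and falling neighbours, and others held calls in 1 direction. The Cyp3a cluster on chromosome 5 spans 768 kb without the distant Cyp3a13, and 5 of its 7 tested genes rose and 1 fell. Cyp3a44 and Cyp3a11 are neighbours there with log2 fold changes of 11.13 and -3.90. The cluster of Cyp2a, Cyp2b, Cyp2f and Cyp2g genes on chromosome 7 spans 1236 kb with 3 of 9 rising and 3 falling, and Cyp2b9 borders Cyp2a4 in it. The Cyp2c cluster on chromosome 19 spans 1180 kb without the distant Cyp2c23, with 1 of 12 rising and 7 falling, and Cyp2c50 (-7.57) borders Cyp2c70 (2.60). In the Cyp2d cluster on chromosome 15, 4 of 6 fell and the other 2 were not called, and in the Cyp2j cluster on chromosome 4, 3 of 4 fell and 1 was not called. In the Cyp4a cluster, also on chromosome 4, 1 of 5 rose and 3 fell, and in the Cyp4f cluster on chromosome 17, 1 of 6 rose and 1 fell.

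**Figure D3:**
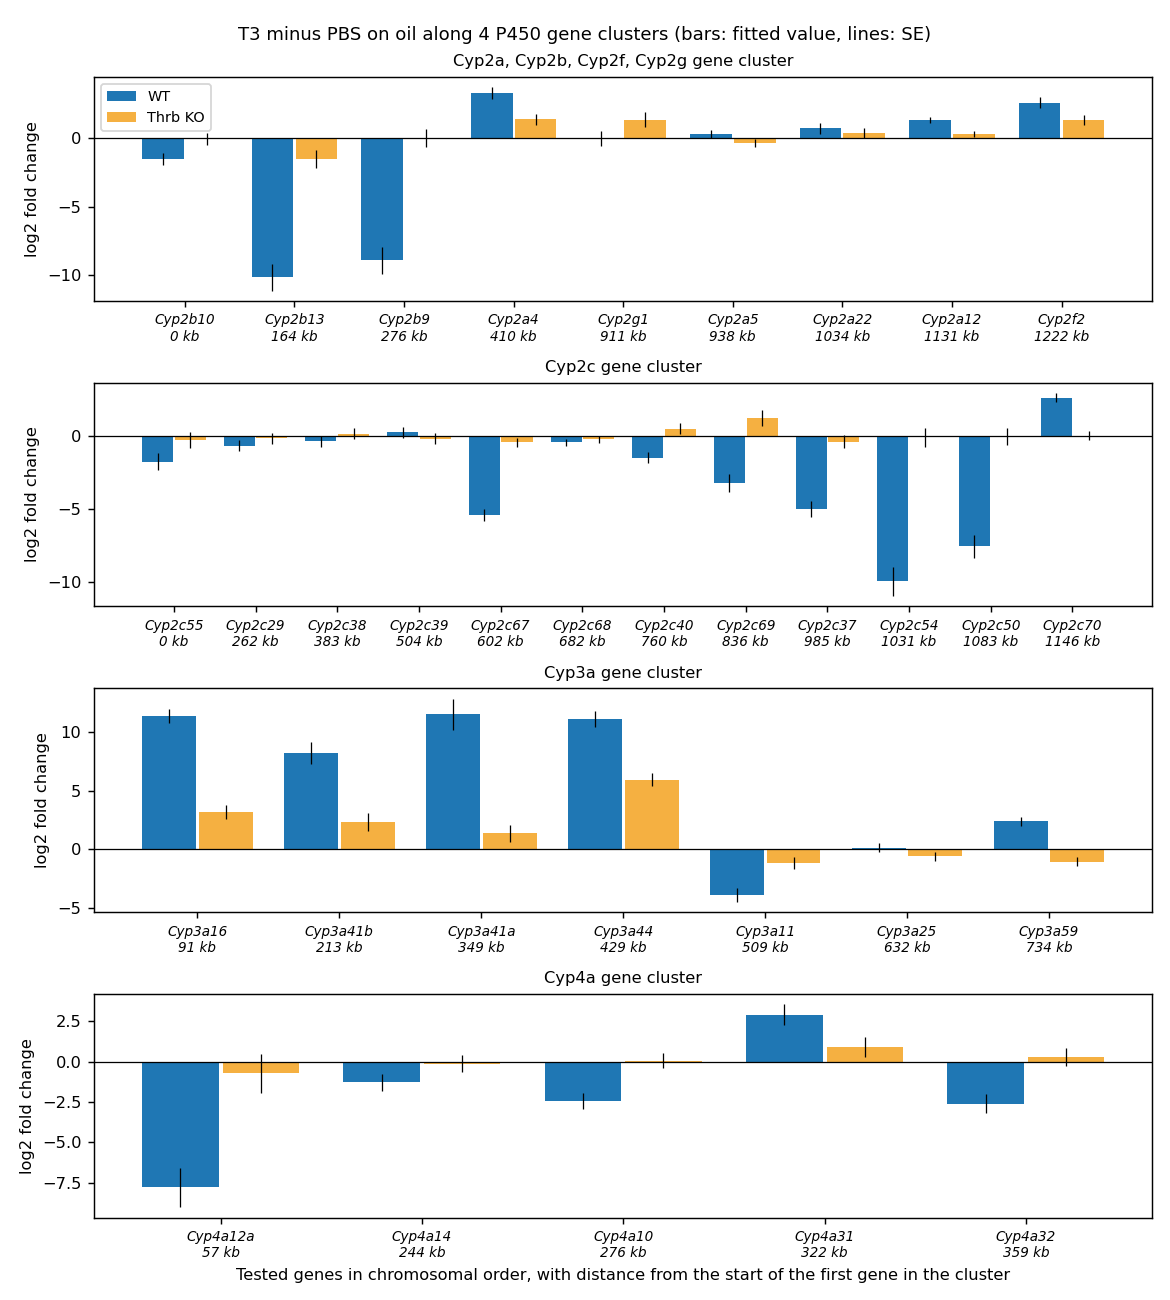
Fitted log2 fold changes of T3 over PBS on oil for the tested genes of 4 clusters in chromosomal order, for wild type and Thrb knockout, with SE as lines and the distance in kb from the start of the cluster's first gene. Neighbouring bars of opposite sign, such as Cyp3a44 (11.13) and Cyp3a11 (-3.90), are those of the wild type, and most knockout bars are short. The fits for Cyp3a41a and Cyp3a41b rest on 2 control counts each.

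In the knockout the same treatment on oil moved members about as often as all genes. With T3, 9 of 59 rose and 3 fell, 20.3% in all, against 18.7% of all genes called (10.6% higher and 8.11% lower), and the median log2 fold change was 0.01. Leaving out 1 library left between 4 and 9 members called, and every knockout oil library except PBS animal 4 brought the count to 7 or fewer. Cyp3a44 had the strongest evidence, from 0.451, 1.17, 0.528 and 1.12 CPM to 75.6, 23.8, 38.1 and 61.3 CPM (log2 fold change 5.95 ± 0.54, SE, edgeR adjusted p = 2.89e-08). Cyp2a4 went from 319, 803, 509.6 and 371 CPM to 1148, 1522, 1516 and 922 CPM (log2 fold change 1.35 ± 0.41, SE, edgeR adjusted p = 0.0192) and Cyp2f2 from 272, 420.3, 405 and 261 CPM to 894, 576, 897 and 963 CPM (log2 fold change 1.29 ± 0.39, SE, edgeR adjusted p = 0.0185). All T3 animals exceeded all controls in these 3 genes. The summed Cyp2a subfamily did not pass here (0.35 ± 0.23, log2, SE, edgeR adjusted p = 0.318). The 3 that fell were Cyp2d9 (-1.10), Cyp3a59 (-1.09) and Cyp1a1 (-1.08). The calls of Cyp2a4, Cyp2f2, Cyp2d9 and Cyp3a59 were each lost when some single libraries were left out, with adjusted p up to 0.0741, 0.0621, 0.0754 and 0.124.

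Genes that fell strongly in the wild type mostly did not pass the test in the knockout. Cyp2b9 stood at 718, 787, 698 and 794 CPM without and 809, 702, 725 and 711 CPM with T3 in the knockout. Cyp2c54 stood at 146, 148, 177 and 187 CPM and 222, 76.2, 116 and 191 CPM, Cyp2c50 at 795 to 1092 and 758 to 1136 CPM and Cyp2c37 at 1450.0 to 1938 and 1163 to 1357 CPM. Groups overlapped for Cyp2b9, Cyp2c54 and Cyp2c50. Cyp2b13 went from 451, 507, 442 and 559 CPM to 199, 160.3, 137 and 176 CPM without overlap, and did not pass (-1.54 ± 0.62, log2, SE, edgeR adjusted p = 0.0804). Cyp3a11 stood at 1912 to 3342 and 736 to 1304 CPM (-1.196 ± 0.55, log2, SE, edgeR adjusted p = 0.131). Summed Cyp3a fell by 0.92 on the log2 scale (edgeR adjusted p = 0.0241).

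The difference between the 2 T3 responses was itself tested as a genotype by T3 term, knockout minus wild type. On oil 30 of 59 members differed (50.8%), 22 with a higher and 8 with a lower value in the knockout, against 12.2% of all genes (5.58% higher and 6.64% lower). Cyp2b9 differed by 8.88 ± 1.15 (log2, SE, edgeR adjusted p = 4.53e-06), Cyp2c54 by 9.85 ± 1.17 (edgeR adjusted p = 1.18e-06) and Cyp2c23 by 5.45 ± 0.50 (edgeR adjusted p = 1.68e-08). Cyp2b13, Cyp2c50, Cyp2c67, Cyp2c37 and Cyp2d22 differed by 8.59, 7.51, 4.97, 4.60 and 1.60. Cyp3a16 differed by -8.19 ± 1.08 (edgeR adjusted p = 6.15e-06) and Cyp3a44 by -5.18 ± 0.77 (edgeR adjusted p = 3.21e-05), so these 2 rose with T3 in each genotype and less in the knockout. Cyp2c70 differed by -2.60, Cyp2a4 by -1.88 and Cyp2a12 by -0.97, and the last 2 were lost without certain single libraries, with adjusted p up to 0.0743 and 0.0678. For the summed Cyp2a subfamily the term did not pass (-0.96 ± 0.33, log2, SE, edgeR adjusted p = 0.0522).

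Of the 12 members that rose in wild-type livers, 6 also rose in the knockout, where 9 rose in all: Cyp2a4, Cyp2f2, Cyp3a16, Cyp3a41b, Cyp3a44 and Cyp4f18. Beside Cyp4f18, a gene known from myeloid cells, other myeloid markers rose with T3 in 4 of 6 in each genotype, from sums of 11.2 to 19.7 CPM to 28.5 to 59.7 CPM in the wild type and from 12.4 to 13.6 CPM to 24.5 to 40.2 CPM in the knockout, and their part was not tested. Of the 25 that fell, 1 fell in the knockout (Cyp2d9), and 2 rose there (Cyp4b1 and Cyp4f14). Of the rest, 18 differed between genotypes by the genotype by T3 term and 4 did not (Cyp2b10, Cyp2c55, Cyp2j8 and Cyp2u1). Among the 12 that rose, that term did not pass for Cyp2f2, Cyp4f18, Cyp4a31 and Cyp4f16. Cyp3a59 was called in opposite directions: it went from 16.2, 39.0001, 24.96 and 30.6 CPM to 161, 167, 158 and 92.5 CPM in the wild type and from 93.2, 85.8, 89.3 and 64.9 CPM to 43.7, 46.1, 28.9 and 37.9 CPM in the knockout. On oil with PBS all 4 knockout livers were above all wild-type livers for this gene, a difference that did not pass (1.59 ± 0.39, log2, SE, edgeR adjusted p = 0.0575). Its genotype by T3 difference was -3.47 ± 0.55 (log2, SE, edgeR adjusted p = 8.3e-05). Whether reads exchanged with other Cyp3a genes had a part in the Cyp3a59 values was not tested. Cyp3a25, of the same cluster, was more abundant, at 282.9 against 29.3 CPM per kb over all libraries. With T3 on oil Cyp3a25 had log2 fold changes of 0.13 in the wild type and -0.63 in the knockout, neither called.

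**Figure D4:**
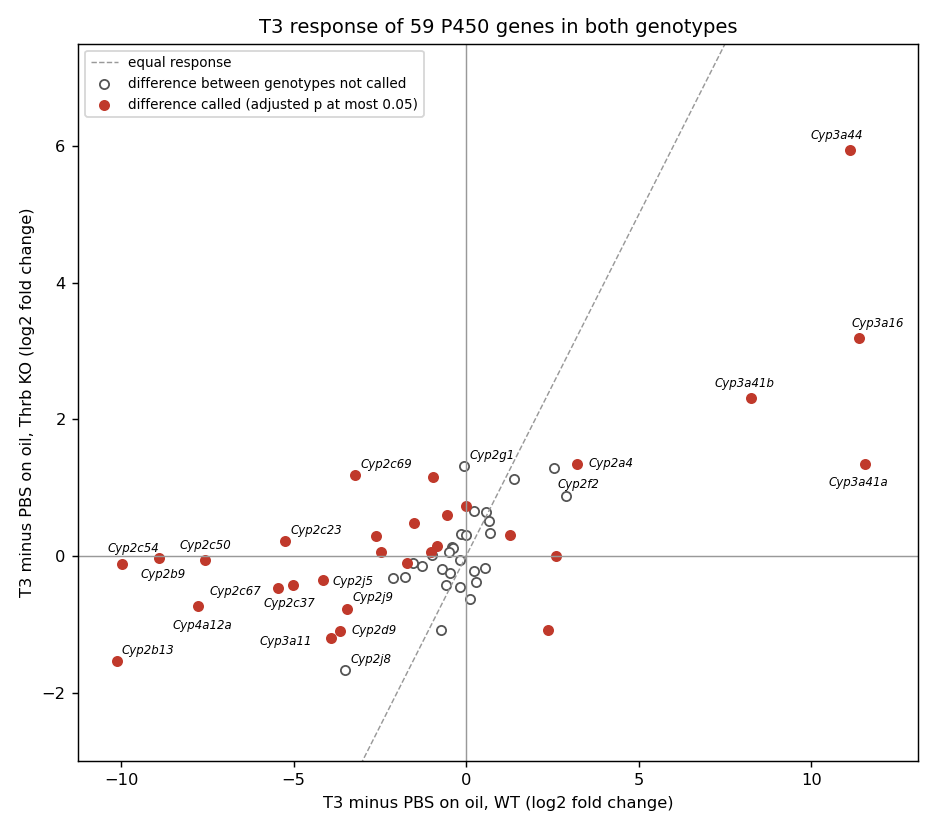
Fitted log2 fold change of T3 over PBS on oil in the wild type (x axis) and in the Thrb knockout (y axis) for 59 P450 genes, 1 point a gene, filled where the difference between genotypes passed the test. Cyp2b9, Cyp2c54 and Cyp2c50 lie far left near 0 on the y axis, and Cyp3a44 is high on both axes. The positions of Cyp3a41a, Cyp3a41b and Cyp4a12a rest on 0 to 2 counts in a group.

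Compared directly under T3 on oil, knockout livers had 22 members higher and 7 lower than wild-type livers, against 16.3% of all genes called (7.14% higher and 9.21% lower). Cyp2c69 stood at 329.8, 373, 316 and 428 CPM in the knockout and 2.60, 5.68, 8.97 and 12.4 CPM in the wild type (log2 fold change 5.60 ± 0.66, SE, edgeR adjusted p = 5.74e-07). Cyp3a16 stood at 3.92, 3.02, 1.38 and 1.99 CPM in the knockout, against 408 to 498 CPM in the wild type (log2 fold change -7.46 ± 0.48, SE, edgeR adjusted p = 4.78e-12). Cyp2c67 and Cyp2c23 were higher in the knockout by 4.98 and 4.83, and Cyp2c70 was lower (-1.41). This contrast and the genotype by T3 term share their T3 livers. Cyp4a31 was lower in the knockout (-1.94), a call lost without single libraries, with adjusted p up to 0.0925.

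Without T3 the genotypes were compared directly as well. On oil with PBS 2 members were called, 1 higher and 1 lower, 3.39% in all, against 0.538% of all genes (0.404% higher and 0.135% lower). Cyp3a41a had 2 counts in the wild type and 356 in the knockout, a ratio of 185-fold, with a 95% counting interval of 50.9 to 1536, but the knockout animals stood at 0.201, 1.54, 0 and 19.3 CPM, and without animal 4 the call was lost (log2 4.08, edgeR adjusted p = 0.314). Cyp4a12a was lower, at 0.0502, 0.185, 0.0440 and 0.118 CPM against 1.12, 1.04, 1.22 and 1.73 CPM (log2 fold change -3.69 ± 0.80, SE). Between 0 and 2 members were called when single libraries were left out. With libraries scaled by total counts alone there were 3 higher and 1 lower.

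CCl4 in wild-type livers without T3 asked what chronic injury does to the same genes. Of 59 members, 3 rose and 33 fell, 61% in all, against 46.2% of all genes called. By direction, 21.6% of all genes were called lower and 24.6% higher, and with libraries scaled by total counts alone 6 members were higher and 27 lower. The median log2 fold change was -0.94 over members and 0.04 over all genes, and 9 called members changed at least 4-fold. Without CCl4 animal 2 the count was 31 and without animal 4 it was 40.

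All 13 tested Cyp2c members fell, from -3.95 in Cyp2c69 to -0.99 in Cyp2c70, and the summed subfamily changed by -1.95 ± 0.33 (log2, SE, edgeR adjusted p = 3.62e-05). Cyp2c40 went from 144, 70.8, 105 and 91.4 CPM to 9.86, 14.8, 8.83 and 22.3 CPM (log2 fold change -2.88 ± 0.42, SE, edgeR adjusted p = 7.15e-06). Cyp2c29 went from 3447, 2725, 1919.8 and 1257 CPM to 438, 202, 317 and 1145 CPM (log2 fold change -2.15 ± 0.39, SE, edgeR adjusted p = 9.42e-05). Cyp2c69 went from 108, 47.7, 66.6 and 56.3 CPM to 2.08, 2.76, 2.22 and 11.03 CPM (log2 fold change -3.95 ± 0.62, SE, edgeR adjusted p = 1.96e-05). No CCl4 animal reached a control in these 3 genes, and animal 4, the library with the highest P450 sum of its group, was the highest each time. Cyp2d9 stood at 43.2, 19.96, 33.1 and 62.8 CPM, which overlapped its controls, and Cyp2d22 at 159, 159, 132 and 229 CPM, which did not (log2 -1.98 and -1.249). Cyp2c38, Cyp2c68 and Cyp2j6 changed by -2.46, -1.45 and -0.94. In 11 of the 36 called members the groups overlapped, and the share over all called genes is not given here.

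The 3 genes that rose were Cyp2a4, Cyp4f16 and Cyp4f18. Cyp2a4 went from 68.1, 435, 179 and 435 CPM to 1332, 1326, 1092 and 673 CPM (log2 fold change 1.99 ± 0.41, SE, edgeR adjusted p = 0.000363). Cyp4f16 went from 4.78, 3.89, 3.28 and 3.71 CPM to 10.4, 11.9, 8.04 and 6.91 CPM (log2 fold change 1.2503 ± 0.21, SE, edgeR adjusted p = 3.26e-05). The groups did not overlap in either gene. Cyp2a4 shares stretches with Cyp2a5, and the summed Cyp2a subfamily was not called (0.22 ± 0.23, log2, SE, edgeR adjusted p = 0.463). Of its 4 members 1 rose and 2 fell. Cyp4f18, which inactivates leukotriene B4 and is known from neutrophils and other myeloid cells, rose by 1.71 ± 0.37 (log2, SE, edgeR adjusted p = 0.000512). Myeloid markers rose beside it, 6 of 6 (Ly6c2, Ccr2, S100a8, S100a9, Itgam and Cd68), with sums of 11.2 to 19.7 CPM on oil and 57.2 to 352 CPM on CCl4. The part of these cells in the Cyp4f18 value was not tested.

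Hepatocyte markers fell with CCl4 in these livers. Of 10 markers 8 fell, with a median of -1.31, and their summed level went from 121815 to 171566 CPM on oil to 48582 to 70676 CPM on CCl4. Stellate cell and myofibroblast markers rose in 5 of 7 and fell in 1, and cholangiocyte markers rose in 4 of 5. In bulk liver RNA fewer hepatocytes and less P450 RNA in each hepatocyte cannot be told apart. Members such as Cyp2b13 (-3.23) and Cyp2g1 (-2.77) fell by more than that marker median, while Cyp2a12 (-0.66) and Cyp2j6 (-0.94) fell by less, which describes single fits and was not tested as a difference.

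In knockout livers without T3, CCl4 raised 4 members (Cyp2a4, Cyp3a44, Cyp4f16 and Cyp4f18) and lowered 24, against 31.1% of all genes called (17.8% higher and 13.4% lower). Without knockout CCl4 animal 3, whose P450 sum was 5897 CPM, 18 were called, 14 of them lower. Hepatocyte markers fell in 4 of 10 and rose in 1, and stellate cell and myofibroblast markers rose in 5 of 7, cholangiocyte markers in 3 of 5 and other myeloid markers in 3 of 6, and their part was not tested. Cyp2c38 and Cyp2d9 fell by 3.0001 and 2.64 on the log2 scale, with Cyp2c69 at -2.88 and Cyp2c39 at -1.91. Although Cyp2a4 rose, the summed Cyp2a subfamily was not called (0.28 ± 0.23, log2, SE, edgeR adjusted p = 0.36). Cyp2d9 stood at 167, 199.9, 141 and 179 CPM on oil and 25.5, 44.8, 10.3 and 29.6 CPM on CCl4, where animal 3 was the lowest. Cyp4f16 went from 3.21, 3.21, 3.52 and 3.07 CPM to 9.20, 10.4, 16.8 and 8.86 CPM (log2 fold change 1.80 ± 0.21, SE, edgeR adjusted p = 1.11e-06), and here animal 3 was the highest. Between the genotypes on CCl4 with PBS, 7 members were higher in the knockout and 1 (Cyp4a12a) lower, against 2.25% of all genes (1.21% higher and 1.04% lower). The 4 with the smallest adjusted p and enough signal were Cyp2c40 (1.84), Cyp2f2 (1.57), Cyp3a59 (1.57) and Cyp2c70 (1.18). For Cyp3a59 the genotypes overlapped there, at 13.1 to 51.5 CPM in the knockout and 4.66 to 26.7 CPM in the wild type. Those 8 calls depended on single livers: 14 were called without wild-type animal 4, 4 without knockout animal 1, 3 without wild-type animal 3, and 1 without wild-type animal 1 or 2 or knockout animal 2 or 4.

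With T3 present, CCl4 was compared with oil in each genotype. In wild-type livers 5 members rose and 1 fell, 10.2% in all, against 3.4% of all genes (1.67% higher and 1.74% lower). Cyp2c50 stood at 178, 23.6, 21.1 and 11.4 CPM on CCl4 with T3 (log2 fold change 3.94 ± 0.69, SE, edgeR adjusted p = 0.000728), Cyp2c37 at 437, 83.9, 127 and 105 CPM (log2 fold change 2.67 ± 0.49, SE, edgeR adjusted p = 0.00109) and Cyp2c67 at 25.3, 14.02, 16.5 and 4.79 CPM (log2 fold change 1.76 ± 0.35, SE, edgeR adjusted p = 0.00221), in each case with animal 1 highest. These 3 genes had fallen with T3 on oil, and every animal with CCl4 and T3 was below every oil animal without T3. Cyp2b9 was called as well (3.02, edgeR adjusted p = 0.0342) and lost without 5 single libraries, with adjusted p from 0.0532 to 0.487. The call was also lost with only the groups compared in the fit (edgeR adjusted p = 0.189). Cyp2d10 rose by 0.66 and Cyp2c38 fell by 2.22 on the log2 scale.

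In knockout livers with T3, CCl4 raised 2 members and lowered 34, against 39.6% of all genes called (19.7% higher and 19.8% lower), with a median of -1.06. Of 13 Cyp2c members 12 fell. Cyp2c69 went from 329.8, 373, 316 and 428 CPM to 3.88, 4.44, 4.85 and 7.14 CPM (log2 fold change -6.16 ± 0.68, SE, edgeR adjusted p = 4.88e-07). Cyp2c54 went from 222, 76.2, 116 and 191 CPM to 6.39, 16.9, 5.74 and 7.14 CPM (log2 fold change -4.06 ± 0.72, SE, edgeR adjusted p = 0.000103) and Cyp2b13 from 199, 160.3, 137 and 176 CPM to 25.9, 8.79, 10.6 and 23.1 CPM (log2 fold change -3.30 ± 0.67, SE, edgeR adjusted p = 0.000393). The CCl4 animals were below all oil animals in the 3 genes. Cyp2c40, Cyp2c38 and Cyp2d22 fell by 3.27, 3.11 and 1.23 on the log2 scale. Cyp4f16 rose by 1.24, and Cyp3a13 (0.57, edgeR adjusted p = 0.0489) was lost under several settings. The summed hepatocyte markers in these livers were 90748 to 119126 CPM on CCl4 and 128321 to 171941 CPM on oil, with 3 of 10 called lower and 1 higher, and 3 of 7 stellate cell and myofibroblast markers were higher and 2 lower. Of 6 other myeloid markers 3 were higher, and of 6 Kupffer cell markers 1 was higher and 3 lower, and their part was not tested.

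T3 in CCl4-injured wild-type livers raised 22 members and lowered 12, against 41.7% of all genes called (20% higher and 21.7% lower), with a median of 0.32 over members. With libraries scaled by total counts alone the split was 19 and 15. Cyp3a16 went from 0.0401 to 0.289 to 275, 593, 287 and 455 CPM (log2 fold change 11.19 ± 0.60, SE, edgeR adjusted p = 5.26e-14) and Cyp3a44 from 1.202, 0.990, 0.322 and 1.70 to 518, 1216, 855 and 1028 CPM (log2 fold change 9.75 ± 0.60, SE, edgeR adjusted p = 1.31e-12). Cyp2c70 went from 131, 116, 181 and 172 to 1803, 1220.0, 1202 and 2548 CPM (log2 fold change 3.496 ± 0.32, SE, edgeR adjusted p = 2.76e-09). The T3 animals were above all others in the 3 genes. Cyp2f2 went from 169, 61.8, 135 and 373 to 2343, 2058, 1566 and 1819 CPM (log2 fold change 3.40 ± 0.42, SE, edgeR adjusted p = 3.29e-07), Cyp2a12 from 322, 168, 280.2 and 457 to 1164, 1382, 1369 and 1329 CPM (log2 fold change 2.09 ± 0.22, SE, edgeR adjusted p = 2.34e-08) and Cyp3a59 from 8.78, 4.66, 7.61 and 26.7 to 134, 73.3, 96.2 and 147 CPM (log2 fold change 3.24 ± 0.42, SE, edgeR adjusted p = 6.79e-07), again without overlap. Cyp2r1, a vitamin D 25-hydroxylase, rose by 1.32. Cyp3a41a had 3 counts without and 3216 with T3, a ratio of 1336-fold, with a 95% counting interval of 457 to 6481, and Cyp3a41b 0 and 358, at least 148.7-fold higher with 3 counts over the group as the limit.

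Of the 3 Cyp2b genes tested, 2 fell with T3 on CCl4, and Cyp2b10 did not pass (-0.78 ± 0.46, log2, SE, edgeR adjusted p = 0.173). Cyp2b9 went from 143, 79.5, 107 and 257 to 30.1, 7.74, 1.05 and 0.872 CPM (log2 fold change -3.88 ± 0.78, SE, edgeR adjusted p = 0.000242) and Cyp2b13 from 22.1, 35.9, 18.4 and 89.7 to 6.06, 2.27, 0.121 and 0.817 CPM (log2 fold change -4.16 ± 0.72, SE, edgeR adjusted p = 4.61e-05). Cyp2c23 went from 150.2, 103, 150.0 and 241 to 33.2, 19.3, 17.9 and 10.7 CPM (log2 fold change -2.99 ± 0.36, SE, edgeR adjusted p = 2.4e-07). No T3 animal overlapped a PBS animal in these genes, and animal 1 was the highest of the T3 group in each. Cyp2c67, Cyp2c54, Cyp2d9, Cyp2j9 and Cyp2u1 changed by -2.22, -4.56, -2.03, -2.33 and -1.54. Hepatocyte markers rose with T3 here in 7 of 10, with sums of 80138 to 119536 CPM, and Kupffer cell markers in 6 of 6, while cholangiocyte markers fell in 4 of 5, stellate cell and myofibroblast markers in 3 of 7 and other myeloid markers in 3 of 6. Their part in the P450 values was not tested. Kupffer markers also rose in 6 of 6 with T3 on oil in each genotype, in the wild type from sums of 79.8 to 173 CPM to 667 to 1072 CPM.

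Whether CCl4 altered the T3 response was tested as a T3 by CCl4 term in the wild type. It passed for 26 members, 23 with a higher and 3 with a lower value on CCl4, against 23.9% of all genes called (10.8% higher and 13.1% lower). Without CCl4 PBS animal 4 there were 36, and without animal 2 there were 21. Cyp2c37 had a T3 log2 fold change of -5.02 on oil and -0.03 on CCl4, a difference of 4.99 ± 0.68 (SE, edgeR adjusted p = 2.48e-05). Cyp2c50 had -7.57 and -1.66, a difference of 5.91 ± 0.92 (edgeR adjusted p = 0.000107). Cyp2c67 and Cyp2d22 differed by 3.22 and 1.68. The 3 with a lower value were Cyp2a4 (-2.002), Cyp4f16 (-1.07) and Cyp4f18 (-1.80), the members that CCl4 alone had raised. That comparison and this term share the wild-type PBS livers. For the summed Cyp2a subfamily the term did not pass (-0.26 ± 0.33, log2, SE, edgeR adjusted p = 0.594). For the same term hepatocyte markers had a higher value on CCl4 in 6 of 10, with a median of 1.41 against 1.14 over the members, and all 6 other myeloid markers had a lower one, with a median of -2.70. Their part in the members' values, that of Cyp4f18 included, was not tested.

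**Figure D5:**
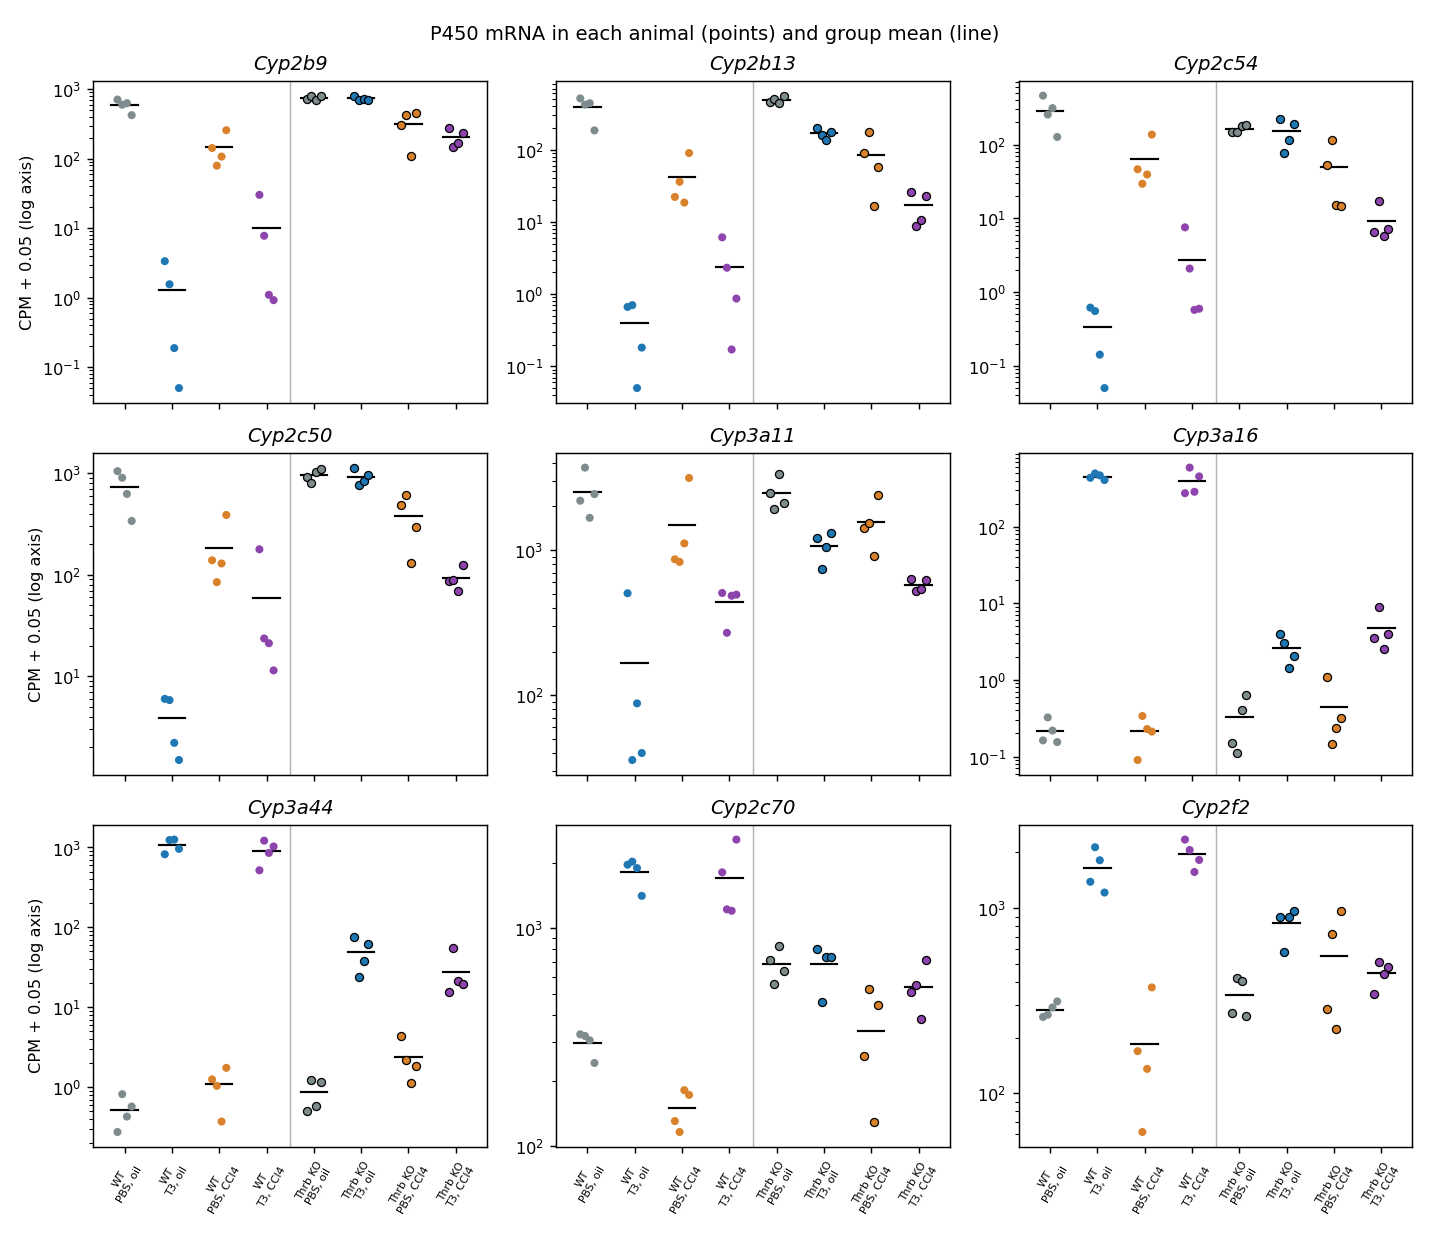
CPM + 0.05 on a log axis for 9 P450 genes in each of 32 livers (points, outlined for the knockout), with the mean of each group as a line. Cyp2b9 lies at 3.30 CPM or less in every wild-type T3 liver on oil and at 698 CPM or more in every knockout liver on oil, and Cyp3a16 lies at 408 to 498 CPM in wild-type T3 livers on oil.

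In CCl4-injured knockout livers T3 raised 3 members and lowered 4, against 2.54% of all genes called (1.77% higher and 0.769% lower). Cyp3a44 rose from 4.37, 2.12, 1.07 and 1.81 to 15.4, 55.4, 21.5 and 19.4 CPM (log2 fold change 3.57 ± 0.47, SE, edgeR adjusted p = 6.46e-05), with animal 2 above the other 3 and no overlap. Cyp3a16 and Cyp3a41a rose as well, while Cyp1a1, Cyp2b13, Cyp2c54 and Cyp2c55 fell. The calls of Cyp2b13 and Cyp2c54 were lost with the replicate block (edgeR adjusted p = 0.0567 and 0.0615), with only the 2 groups fitted (0.142 and 0.15) and without several single libraries (up to 0.18 and 0.22), and that of Cyp2c55 with only the 2 groups fitted (0.067). The count was 14 without PBS animal 3, 4 without T3 animal 2 and 3 without T3 animal 4 or PBS animal 1. The genotype by T3 term on CCl4 passed for 24 members, 5 with a higher and 19 with a lower value in the knockout, against 22.7% of all genes (10.3% higher and 12.4% lower). Cyp3a44 differed by -6.18 ± 0.67 (log2, SE, edgeR adjusted p = 2.02e-07), Cyp3a16 by -7.70, Cyp3a59 by -4.48 and Cyp2a12 by -2.21. On the other side were Cyp2c23 (2.17), Cyp2c67 (1.87), Cyp2b9 (3.23), Cyp2u1 (1.94) and Cyp4a12a, whose wild-type T3 libraries had no count. The Cyp2b9 call was lost with only the term's own groups fitted (edgeR adjusted p = 0.0636). That of Cyp2u1 was lost without knockout CCl4 PBS animal 4 (edgeR adjusted p = 0.0542). For this term 6 of 10 hepatocyte markers had a lower value in the knockout, with a median of -1.31 against -0.69 over the members, and 4 of 6 other myeloid, 2 of 7 stellate cell and myofibroblast and 2 of 5 cholangiocyte markers a higher one. Their part was not tested.

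Compared directly under CCl4 and T3, knockout livers had 6 members higher and 22 lower than wild-type livers, against 22.9% of all genes called (10.4% higher and 12.5% lower). Cyp2f2 stood at 344, 514, 439 and 483 CPM in the knockout and at 1566 to 2343 CPM in wild-type livers given the same (log2 fold change -2.13 ± 0.40, SE, edgeR adjusted p = 0.000278). Cyp2a12 stood at 617, 498, 450.5 and 403 CPM against 1164, 1382, 1369 and 1329 CPM (log2 fold change -1.41 ± 0.22, SE, edgeR adjusted p = 2.44e-05). Cyp3a16, Cyp3a44 and Cyp3a59 were lower by 6.41, 5.02 and 2.92 on the log2 scale. Cyp2b9 was higher in the knockout, at 275, 146, 166 and 232 CPM (log2 fold change 4.36 ± 0.79, SE, edgeR adjusted p = 0.000223), and Cyp2c67, Cyp2c23 and Cyp2u1 were higher by 2.08, 1.93 and 1.95. In this comparison 3 of 10 hepatocyte markers were lower and 1 higher in the knockout, 3 of 6 Kupffer cell markers were lower, and 3 of 7 stellate cell and myofibroblast, 2 of 6 other myeloid and 2 of 5 cholangiocyte markers were higher, and their part was not tested.

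Sums over subfamilies, within which swapped reads cancel, were fitted as well, although reads may still be exchanged with genes outside the sums: Cyp2b13 shared 13.8% of its 50-base stretches with Gm45225 and Cyp2f2 9.00% with Gm15883. With T3 on oil in the wild type, Cyp2a and Cyp2f rose (1.31 and 2.54) and Cyp2b, Cyp2d, Cyp2j, Cyp2u, Cyp4a, Cyp4b and Cyp4f fell, the last 3 at -1.45, -0.56 and -0.75. With CCl4 without T3, Cyp2g had the lowest value (-2.77 ± 0.63, log2, SE, edgeR adjusted p = 0.0009), and Cyp2b (-1.74), Cyp2j (-1.64), Cyp4f (-1.35) and Cyp4a (-1.22) fell as well. With T3 on CCl4, Cyp2f (3.40 ± 0.42, edgeR adjusted p = 3.26e-07), Cyp2g (2.02), Cyp2c (1.503), Cyp2r (1.32) and Cyp2a (1.05) rose, and Cyp2b, Cyp2u and Cyp2j fell. The Cyp2c sum thus passed as higher with T3 on CCl4 and did not pass on oil.

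Grouped by what is known of their control, members of the same list did not all move alike with T3 on oil in the wild type, where 19% of all genes were called higher and 16.2% lower. Of 10 genes known as CAR or PXR targets, 6 fell (Cyp2b10, Cyp2c37, Cyp2c50, Cyp2c54, Cyp2c55 and Cyp3a11), with a median of -1.66. Of 5 epoxygenases, 4 fell (Cyp2c23, Cyp2j5, Cyp2j8 and Cyp2j9), with a median of -3.51. Of 4 PPARα targets 1 rose and 2 fell. Of 10 genes known as female-biased in mouse liver, 5 rose (Cyp2a4, Cyp3a16, Cyp3a41a, Cyp3a41b and Cyp3a44) and 4 fell (Cyp2b9, Cyp2b13, Cyp2c40 and Cyp2c69), and both tested male-biased genes fell (Cyp2d9 and Cyp4a12a). In the knockout on oil, where 10.6% of all genes were called higher, 4 of these 10 female-biased genes rose (Cyp2a4, Cyp3a16, Cyp3a41b and Cyp3a44). Cyp3a41a, which can hardly be told apart from Cyp3a41b, was not called there (1.34). With CCl4 in wild-type livers without T3, where 24.6% of all genes were called higher and 21.6% lower, 6 CAR or PXR targets, 3 epoxygenases and 5 female-biased genes fell and 1 female-biased gene rose. The aryl hydrocarbon receptor targets Cyp1a1 and Cyp1b1 had log2 fold changes of -0.73 and 0.23 with T3 and 0.58 and 0.71 with CCl4, none of which passed, and Cyp1a1 fell with T3 in the knockout (-1.08).

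Other genes of the system were read from fixed lists, with the same 35.3% of all genes called with T3 on oil in the wild type, 18.7% in the knockout and 46.2% with CCl4 in the wild type to be set beside their counts. Of 12 tested regulators 1 rose and 6 fell with T3 on oil in the wild type, among them Nr1i3, which encodes CAR (-2.10 ± 0.59, log2, SE, edgeR adjusted p = 0.00623), Cebpa (-1.26) and Nr1i2, which encodes PXR (-0.85, edgeR adjusted p = 0.0499). The riser was Tiparp (1.39). In the knockout 2 regulators fell, Ahr (-0.89) and Arnt (-0.47). By the genotype by T3 term on oil, 1 regulator had a higher value in the knockout (Cebpa) and 1 a lower one (Tiparp), against 12.2% of all genes called. Nr1i3 and Nr1i2 did not pass that term. Of 7 regulators of growth hormone signalling and sex-biased expression, 4 rose in the wild type: Stat5a (2.90), Trim24 (2.14), Cux2, a repressor typical of female liver (4.09 ± 0.54, SE, edgeR adjusted p = 6.56e-07), and Stat5b (0.90). Ghr, the growth hormone receptor, fell by 0.70 on the log2 scale, and in the knockout Stat5a alone of the 7 was called (0.91).

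Of 8 genes for electron donors and haem supply, Hmox1, which breaks down haem, rose (1.85) and Cyb5a and Fech fell (-1.15 and -0.60), while Por, the P450 reductase, was not called (0.52 ± 0.28, SE, edgeR adjusted p = 0.152). With CCl4 in wild-type livers without T3, 5 of these 8 fell and Hmox1 rose (2.13), and 9 of 12 regulators fell and Tiparp rose (0.81). Nr1i3 was at -1.79, Nr1i2 at -1.16 and Cux2 at -2.23 in that comparison. Hepatocyte markers fell there in 8 of 10, as given above, and in 2 of 10 with T3 on oil, with sums of 77691 to 108398 CPM with T3.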

How the data were processed

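Liver RNA of 32 mice was compared in 8 groups of 4. The authors deposited raw counts per gene and library, as whole numbers. Per the submitters' processing notes, reads were checked with FastQC 0.11.5, trimmed with Trim Galore and cutadapt, and aligned with STAR 2.7.9a to GRCm38. How reads were counted, with which strand setting and on which annotation release, was not given in the sources used here. Of 52636 gene IDs, 52489 matched GENCODE M21 (GRCm38), from which names, biotypes, exon lengths and shared stretches were taken. The 147 unmatched held at most 0.00558% of a library's counts.

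Counts were analysed with edgeR 4.0.16 and limma 3.58.1 in R 4.3.3: TMM scaling, filterByExpr with a minimum count of 10 and a total of 15, and quasi-likelihood F tests from 1 fit of all 32 libraries with a mean per group. P-values were adjusted by Benjamini-Hochberg over 15599 genes and called at 0.05 or less. CPM are TMM-scaled. A standard error is the log2 fold change divided by the root of F. The tests were tried on simulated data first. Alternatives were total-count and RLE scaling, no filter, a replicate block, only the groups compared, each library left out in turn, and DESeq2 1.42.0. Counts of 0 were read against a limit of 3 counts per group, and low counts with 95% intervals; both cover counting error only.

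The members and gene lists were chosen with earlier results of these data known. Named members are up to 8 per direction in 5 main comparisons (T3 in wild type on oil and on CCl4, CCl4 in wild type without T3, the genotype by T3 term on oil, and knockout with T3 on oil) and 4 in others, by adjusted p, among called members reaching a mean of 5 CPM, plus the member of highest level in each subfamily and group. Cyp2b10, Cyp2j5, Cyp2a5, Cyp3a11, Cyp4a31, Cyp4f18 and members named to complete a list or cluster were chosen after their values were seen. Comparisons with the same PBS or oil livers share those samples.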

Additional observations from a re-analysis of the deposited data

Results flagged for a closer look

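Single animals stood apart from the other 3 of their group in 12 of 144 groups of 4 examined, those of 19 often named members with a group mean of at least 1 CPM and of the P450 sum. The rule flags about 1 in 20 groups of independent, normally distributed values. The members come from the same animals and enter the sum, so this count cannot be set against that rate. Wild-type CCl4 PBS animal 4 was high for Cyp2c54 (137 CPM), Cyp2c69 (11.03 CPM) and the P450 sum (16372 CPM). Wild-type CCl4 T3 animal 1 was high for Cyp2c37 (437 CPM), Cyp2c50 (178 CPM) and the P450 sum (23518 CPM), and animal 3 of that group for Cyp2d9 (13.3 CPM). Knockout CCl4 T3 animal 2 was high for Cyp2c54 (16.9 CPM) and Cyp3a44 (55.4 CPM). Knockout oil PBS animal 4 was high for Cyp3a41a (19.3 CPM), wild-type oil T3 animal 4 low for Cyp3a59 (92.5 CPM), and knockout CCl4 PBS animal 3 low for Cyp2a12 (377 CPM).

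The T3 response differed between genotypes on oil, by the tested difference (knockout minus wild type, log2, edgeR), for Cyp2c54 (9.85), Cyp2b9 (8.88), Cyp2b13 (8.59), Cyp2c50 (7.51), Cyp2c23 (5.45), Cyp2c67 (4.97), Cyp2c37 (4.60) and Cyp2d22 (1.60). In the other direction were Cyp3a41a (-10.21), Cyp3a16 (-8.19), Cyp3a41b (-5.94), Cyp3a44 (-5.18), Cyp3a59 (-3.47), Cyp2c70 (-2.60), Cyp2a4 (-1.88) and Cyp2a12 (-0.97). The values of Cyp3a41a and Cyp3a41b rest on 2 counts each in the wild-type controls, and their reads can hardly be told apart. The Cyp3a41b difference was -0.76 (edgeR adjusted p = 0.799) without knockout oil PBS animal 4, the animal that stood apart for Cyp3a41a. On CCl4 the difference was 3.23 for Cyp2b9, 2.17 for Cyp2c23, 1.94 for Cyp2u1 and 1.87 for Cyp2c67, and -7.70 for Cyp3a16, -6.18 for Cyp3a44, -4.48 for Cyp3a59 and -2.21 for Cyp2a12. The calls of Cyp2b9 and Cyp2u1 on CCl4 were lost in other settings, as given above. Between oil and CCl4 in the wild type, the T3 response differed by 5.91 for Cyp2c50, 4.99 for Cyp2c37, 3.22 for Cyp2c67 and 1.68 for Cyp2d22, and by -2.002 for Cyp2a4 and -1.07 for Cyp4f16.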

How the results depend on the processing

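Of 127 named values, 107 kept their direction and their call under every setting run, 20 lost the call in at least 1 setting, 10 of them only where a library was left out, and none reversed. No called member changed sign under another scaling or DESeq2. Total-count scaling moved the median of all genes from 0.04 to 0.43 for CCl4 in the wild type without T3, from -0.06 to -0.42 for T3 on CCl4 and from -0.05 to -0.53 for the T3 by CCl4 term. The same scaling moved the share of higher calls among all called genes from 53.2% to 81.8% for CCl4 in the wild type with PBS, 48.96% to 24.4% for CCl4 in the wild type with T3, 57.1% to 86.3% for CCl4 in the knockout with PBS and 49.9% to 64.3% for CCl4 in the knockout with T3. It moved it from 53.99% to 67.1% for T3 in the wild type on oil, 47.9% to 20.3% for T3 in the wild type on CCl4, 56.7% to 70.6% for T3 in the knockout on oil and 69.7% to 44.2% for T3 in the knockout on CCl4, and from 53.9% to 30.1% for the knockout on CCl4 with PBS, 43.7% to 29.2% for the knockout on oil with T3, 45.5% to 61.1% for the knockout on CCl4 with T3, 45.3% to 67.8% for the genotype by T3 term on CCl4 and 45.2% to 10.3% for the T3 by CCl4 term. Counts of called members moved by more than 1.5 times in 4 comparisons. T3 in the knockout on oil gave 12 members and 19 with only its own groups fitted. T3 in the knockout on CCl4 gave 7, and 11 with total-count scaling, 3 with only its own groups and 12 with DESeq2. The knockout on oil with PBS gave 2, and 4 each with total-count scaling, with no filter and with DESeq2. The knockout on CCl4 with PBS gave 8, 7 with DESeq2 and 0 with only its own groups in edgeR, where 8 had an unadjusted p under 0.05. The causes were not tested.

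With each library left out in turn, counts ran from 18 to 31 (28 with all) for CCl4 in the knockout without T3, 4 to 9 (12) for T3 in the knockout on oil, 3 to 14 (7) for T3 in the knockout on CCl4, 0 to 2 (2) for the knockout on oil with PBS, where 6 to 8 had an unadjusted edgeR p under 0.05 at a count of 0, and 1 to 14 (8) for the knockout on CCl4 with PBS. In the remaining comparisons they stayed within 1.5 times, such as 36 to 39 (37) for T3 in the wild type on oil.

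A replicate block was fitted because groups share replicate numbers. Animals carry their own numbers, and libraries of the same number did not deviate together: over 112 pairs the median correlation of deviations was -0.00933, and 4 of 32 libraries correlated best with their own number. With the replicate block the knockout on CCl4 with PBS gave 5 members in place of 8, T3 in the wild type on oil gave 37 as before, and no other count of members moved by over 1.5 times. Genes near the detection limit, such as Cyp3a41b, Cyp4a12a and Cyp1b1, are limited by depth.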
